A study of Mus musculus with 24 samples.

Results

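Metatarsal rudiments held at 50 MPa were compared with rudiments kept without pressure. The members are 8 of the 24 libraries of the series, chosen by their labels: 4 controls at 0 MPa (MC1 to MC4) and 4 samples at 50 MPa (M501 to M504). All were C57/BL6 metatarsals (C57/BL6J in the paper) of unknown sex, taken from embryos at E15 and cultured for 24 hours, and each sample pooled 6 bones. The samples were sealed in syringes inside a water-filled vessel at room temperature for 1 hour at 0, 5 or 50 MPa, cultured for a further 24 hours and then lysed for total RNA. The 4 samples at 5 MPa (M51 to M54), which share the controls, entered the fit for its estimate of the spread. The labels write the pressures in mPa and the paper in MPa, and the paper's unit is used here. No source says whether the pools of a group came from separate litters, so each p-value measures the spread between these samples only, and an organ culture pool cannot separate fewer cells of a type from less RNA per cell.

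The E15 metatarsal is a rod of cartilage that models the growth plate. Round chondrocytes at its ends secrete type II collagen and aggrecan, flattened cells divide in columns, and cells near the middle enlarge (hypertrophy), express Col10a1 and later Mmp13, and are replaced by bone. A sheath of fibroblast-like perichondrium surrounds the rod, and scraps of muscle, tendon and skin can come along in dissection. Hydrostatic pressure squeezes cells evenly from every side. The study called 5 MPa physiological and 50 MPa injurious, and the comparison asks which genes an injurious pressure leaves altered a day later.

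The libraries held between 4185557 and 17321026 estimated counts in controls and between 10887599 and 14548505 at 50 MPa. One gene without a symbol, ENSMUSG00000119584, took 21.5% to 26.6% of the counts in controls and 8.62% to 16.2% at 50 MPa, with no overlap between these groups. Protein-coding genes took 50.7% to 57.8% and 56.9% to 70.6%. Neither the labels nor the paper's text give the sequencing run of a library. M504 is the only unstranded metatarsal library. MC1 and M504 were read as the first run from the colour strip of the published heat map alone. Their profiles lay farthest from the other metatarsal libraries, with median distances of 105 and 107 (on log2 CPM over all genes tested) against 73.3 to 91 for the rest. M501 to M503 and MC2 to MC4 are stranded libraries of the second run ("run 2 libraries"), and the value from these 6 is given beside results that it moves most. Sex-linked genes differed from pool to pool: Xist was at 4.91 CPM (counts scaled to a library of 1e6) in M503 and from 841 to 2736 in the controls, and Ddx3y was at 0.902 CPM in M504 and 1.75 in MC2 against 16.9 to 83.2 in the other 6.

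Of 19382 genes tested with edgeR's quasi-likelihood test, 3 passed an adjusted p of 0.05, which is 0.0155% of the genes tested. Gm13769 rose at 50 MPa (0.00516% of the genes tested), and Gm28437 and Olfr1506 fell (0.0103%). Each of the 3 shares its sequence with a second gene. Gm28437 (ENSMUSG00000101111) is annotated as an unprocessed pseudogene on chromosome 1 and copies mt-Co3, the mitochondrial gene for subunit 3 of cytochrome c oxidase. Olfr1506 (ENSMUSG00000075064) is an olfactory receptor gene, and Gm13769 (ENSMUSG00000089859) is a predicted gene; both are on chromosome 2. All 783 bases of the Gm28437 transcript lie inside the mt-Co3 transcript with 0 mismatches, and the 930 bases of transcript Gm13769-201 and the 2340 bases of Gm13769-202 lie inside transcript Olfr1506-201 with 0 mismatches. The first 90 bases of each copy and the matching 90 bases of its partner, from the GENCODE transcripts of GRCm38, are set one above the other because their identity is what the 3 called genes share. No base is in capitals because no base differs.
mt-Co3: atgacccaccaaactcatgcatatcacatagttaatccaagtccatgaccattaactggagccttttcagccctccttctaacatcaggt
Gm28437: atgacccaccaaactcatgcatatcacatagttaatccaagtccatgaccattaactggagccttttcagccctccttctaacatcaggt
Olfr1506: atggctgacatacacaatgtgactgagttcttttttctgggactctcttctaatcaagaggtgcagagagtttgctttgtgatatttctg
Gm13769: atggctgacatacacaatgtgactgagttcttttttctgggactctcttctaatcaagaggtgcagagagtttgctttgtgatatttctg

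Gm28437 had 1373, 4187, 3739 and 2400 counts in MC1 to MC4 and 0 in every library at 50 MPa. Its level was thus at least 1204-fold lower at 50 MPa, taking a floor of 3 counts in each library, and its adjusted p was 1.49e-09 (edgeR). Added together, Gm28437 and mt-Co3 stood at 1715, 1234, 1160 and 1491 CPM in the controls and at 1372, 1366, 1585 and 1266 CPM at 50 MPa. The groups overlapped, and the summed pair had a log2 fold change of -0.0027 ± 0.18 (SE) with an adjusted p of 0.999 (edgeR, copies summed).

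Olfr1506 had 8, 30, 46 and 29 counts in the controls and 0 in all 4 libraries at 50 MPa, at least 10.9-fold lower (adjusted p = 0.00492, edgeR). Gm13769 had 0 counts in every control and 24, 44, 29 and 17 in M501 to M504, at least 5.72-fold higher (adjusted p = 0.00014, edgeR). Summed, the pair stood at 2.04, 2.10, 3.42 and 2.92 CPM in the controls and 2.06, 2.55, 2.26 and 1.70 CPM at 50 MPa, so every library held counts of one gene of the pair and none of the other. The summed log2 fold change was -0.31 ± 0.26 (SE; adjusted p = 0.761, edgeR, copies summed).

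The same on and off pattern was present outside the comparison. At 5 MPa, Gm28437 and Olfr1506 had 0 counts in all 4 libraries and Gm13769 had 32 to 54, and the same 3 genes passed the threshold there (0.0155%), against the same controls. Across the 24 libraries of both tissues, 11 held counts of Olfr1506 only, 12 of Gm13769 only and 1 of both. In the 12 hip cap libraries, 7 held Olfr1506 only and 4 held Gm13769 only, and both states occurred among hip cap controls and at each pressure. The share of the summed mt-Co3 counts given to Gm28437 was 16.2% to 24.0% in metatarsal controls and reached 75.6% in hip cap controls, 49.4% at 5 MPa and 88.8% at 50 MPa, with 0 in at least 1 library of each hip cap group.

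**Figure D1:**
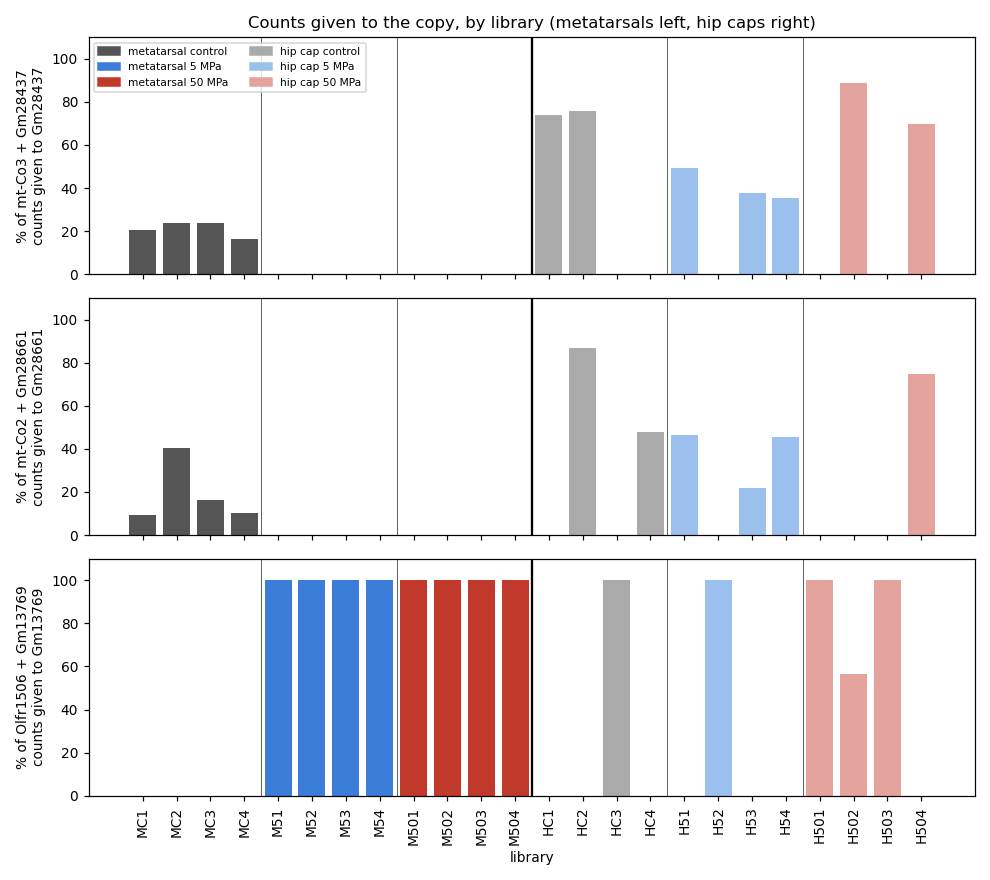
Percent of the summed counts of an identical pair of genes that was given to the copy, for each of the 24 libraries (bars from 0 to 100%; metatarsals left of the thick line, hip caps right of it, coloured by group; no bar means 0%). Within metatarsals every control differs from every pressurised library, while hip cap libraries at each pressure show both states.

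A further copy followed the same pattern without passing the threshold. Gm28661, whose 681 bases lie without a mismatch in mt-Co2, the gene for subunit 2 of the same enzyme, had 784, 11174, 3416 and 1774 counts in the controls and 0 in every library at 50 MPa (adjusted p = 0.549, edgeR). With mt-Co2 added, the pair stood at 1839 ± 260 CPM in controls and 1704 ± 386 CPM at 50 MPa (mean ± SD, n = 4), a log2 fold change of -0.11 ± 0.18 (SE). In the whole table, 4 genes had at least 3 counts in every control and 0 at 50 MPa (Olfr1506, Rab11b-ps2, Gm28437 and Gm28661), and all 4 had at least 90% of their 31-base words in other genes, which held for 2.26% of the genes tested that have such words. In the reverse direction, 5 genes had at least 3 counts in every 50 MPa library and 0 in every control (Gm13769, Gm14434, Gm6136, Gm8055 and CT030155.1), and 3 of these 5 shared that many words. Only Gm13769 among the 5 passed the filter on low counts. With copies summed into families, 0 of 19144 (0.0%) passed the threshold, and 1559 had an unadjusted p under 0.05. How the counts were divided between identical sequences, and why the division differed between libraries, was not tested.

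Apart from these copies no gene passed in the main edgeR fit, and the values that follow describe genes that did not pass in it. A DESeq2 fit called 15 genes, among them Penk, Uchl1, Tspo, Plac9a, Cd34, Smtnl2, Enkd1 and Cspg5, which are described below. The edgeR fit with no filter on low counts called 13, among them Penk, Uchl1, Tspo, Plac9a and Smtnl2. Over all genes, 805 (4.15%) were higher and 776 (4.0%) lower at an unadjusted p under 0.05. The 4 libraries at 50 MPa were all above the 4 controls for 408 genes (2.11%) and all below them for 464 (2.39%). An exact permutation test of 4 libraries against 4 cannot give a two-sided p below 0.0286, the value it gives for every gene without overlap.

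The 9 genes with the next lowest unadjusted p were taken after their values were seen, since the rule for named genes did not hold them all. Penk, which encodes the opioid precursor proenkephalin, came first. It stood at 85.3, 114, 118 and 90.1 CPM in the controls and at 155, 151, 163 and 215 CPM at 50 MPa, so the groups did not overlap and M504 was highest. The log2 fold change was 0.74 ± 0.13 (SE) with an adjusted p of 0.186 (edgeR), and 0.54 in the run 2 libraries. At 5 MPa Penk lay between the groups, at 132 ± 10.4 CPM (SD, n = 4).

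Uchl1, a deubiquitinating enzyme abundant in neurons, stood at 8.91, 11.1, 11.7 and 9.16 CPM in controls and at 18.3, 18.2, 15.1 and 25.5 CPM at 50 MPa. No value overlapped, and the log2 fold change was 0.89 ± 0.16 (SE; adjusted p = 0.186, edgeR). Tspo, a cholesterol-binding protein of the outer mitochondrial membrane, stood at 9.42, 13.4, 13.9 and 11.5 CPM against 18.2, 20.5, 20.1 and 32.8 CPM (log2 fold change 0.89 ± 0.19, SE, and 0.60 in the run 2 libraries). Plac9a, a small secreted protein with 99.7% of its words in other genes, had a log2 fold change of 0.77 ± 0.17 (SE), and in M504 it reached 74.6 CPM against 38 to 46.4 in the other 3. Cd34 and Clec14a, both cell-surface glycoproteins of endothelium (Cd34 also of fibroblast-like cells), were at 58.1 ± 5.06 and 19.5 ± 1.70 CPM in controls and at 76.6 ± 3.46 and 30.3 ± 4.02 CPM at 50 MPa (mean ± SD, n = 4). Their log2 fold changes were 0.42 and 0.59 in the run 2 libraries and 0.40 and 0.63 with all 8.

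In the opposite direction, Smtnl2, a smoothelin-like actin-binding protein, stood at 18.3, 17.3, 12.5 and 14.9 CPM in controls and at 9.94, 8.39, 9.82 and 7.92 CPM at 50 MPa. Enkd1, a protein of centrosomes and microtubules, stood at 11.2 ± 1.36 CPM and 6.89 ± 0.554 CPM, and Cspg5, a chondroitin sulphate proteoglycan, at 7.55 ± 1.38 and 4.40 ± 0.353 CPM (mean ± SD, n = 4). Their log2 fold changes were -0.79 ± 0.17, -0.69 ± 0.14 and -0.80 ± 0.17 (SE). All 3 had an adjusted p of 0.471 (edgeR). Smtnl2 was near its control level at 5 MPa (14.5 ± 3.02 CPM, SD, n = 4), while Enkd1 and Cspg5 lay between the groups there.

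**Figure D2:**
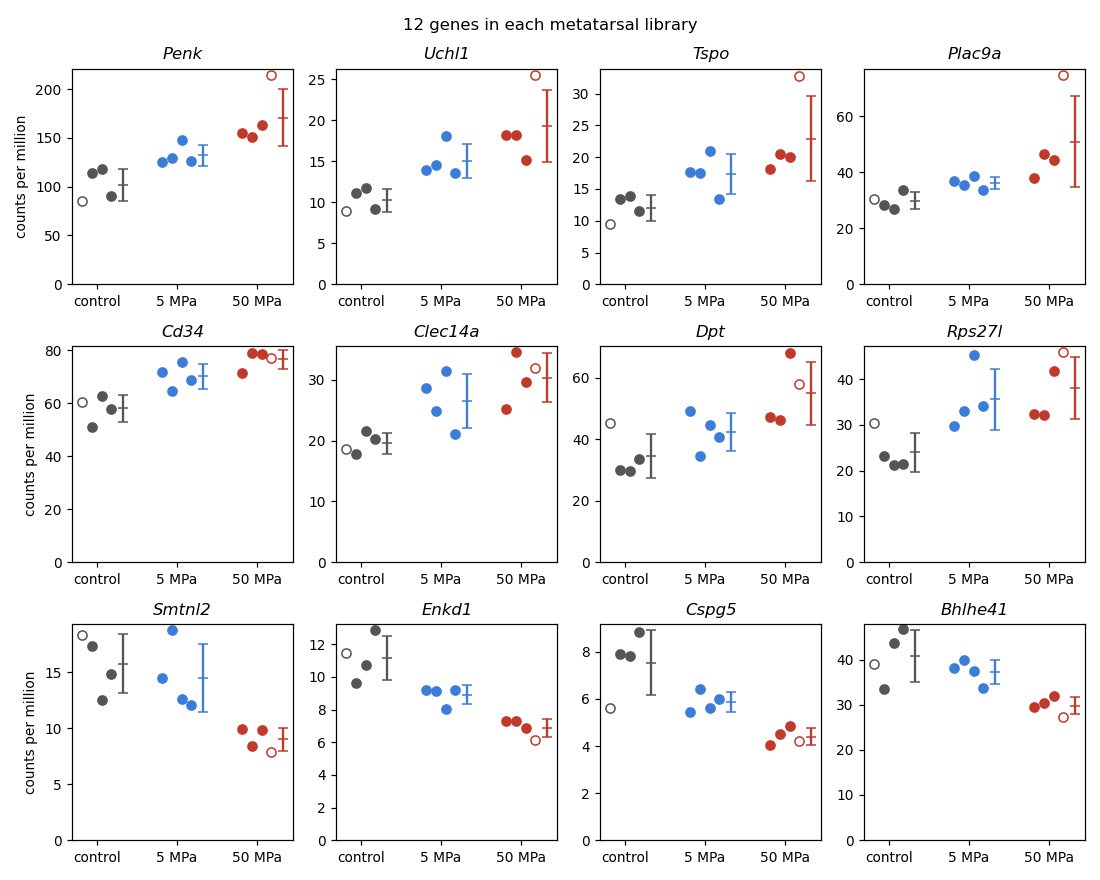
CPM (linear axis from 0) of 12 genes in each metatarsal library at 0, 5 and 50 MPa; a point is a library, open points are MC1 and M504, and the bar beside each group is the mean ± SD of 4 libraries. The control and 50 MPa points do not overlap for any of the 12, and M504 is the highest point at 50 MPa for Penk, Uchl1, Tspo, Plac9a and Rps27l.

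The rule for named genes took those with the highest and lowest fold changes among the 429 non-overlapping genes, neither predicted nor pseudogenes, with a mean of at least 1 CPM and an unadjusted p under 0.05 (256 higher and 173 lower). Beside Tspo and Uchl1, the higher ones were the histone genes Hist2h2aa1 and Hist1h2ag, the long noncoding RNA Bvht, Ccdc125, Ly6c1, Tcaf2, Gmfg and Agt, with log2 fold changes from 0.93 (Agt) to 1.60 (Hist2h2aa1). In the run 2 libraries these 8 lay between 0.45 (Agt) and 1.24 (Hist2h2aa1), and without M504 alone Agt came to 0.59 and Bvht, at 1.23 with all 8 libraries, to 0.80. Hist2h2aa1 was at 0 CPM in MC1 and 8.60, 27.9 and 28.1 in the other controls, against 33.4 to 73.4 at 50 MPa and 26.2 to 64.7 at 5 MPa, and 89.7% of its words lie in other genes. Ly6c1, a surface protein of endothelial and myeloid cells, stood at 1.71 to 5.39 CPM in controls and 5.67 to 8.42 at 50 MPa. Agt, the precursor of angiotensin, stood at 0.255 to 0.979 and 1.01 to 2.31 CPM.

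The lower ones were mostly short noncoding RNAs. Beside Olfr1506 they were the histone gene Hist1h2ao, the 5S ribosomal RNA genes n-R5s65 and n-R5s185, the small nucleolar RNAs Snora16a, Snora61, Snord32a and Snora47, the mitochondrial methionine transfer RNA mt-Tm, and the homeobox gene Obox3. Snord32a, which guides methylation of ribosomal RNA, stood at 4.58, 18, 6.10 and 6.94 CPM in controls and 3.51, 1.16, 2.03 and 1.10 CPM at 50 MPa, and log2 fold changes of the whole group ran from -1.40 (Snora47) to -4.63 (Hist1h2ao). Hist1h2ao has 93.8% of its words in Hist1h2ap. All 9 had the same direction in the run 2 libraries, between -1.17 (Obox3) and -4.55 (Hist1h2ao). At 5 MPa the log2 fold changes of Snora16a, Snora61, Snord32a and Snora47 lay between -0.43 and -1.09, and M51 was the highest of the 4 libraries there for each of them (19.7 CPM of Snord32a, for example, against 1.5 to 3.08). The paper's libraries were depleted of ribosomal RNA, and the part of depletion in n-R5s65 and n-R5s185 was not tested.

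In the run 2 libraries alone, 13 of 18840 genes passed the threshold (0.069%), 1 higher and 12 lower. At an unadjusted p under 0.05, 998 (5.3%) were higher and 1255 (6.66%) lower. The single gene that rose past the threshold was Gm13769, and Gm28437 and Olfr1506 were among those that fell. Gm10443, a copy whose 210 bases lie without mismatch in the ribosomal protein gene Rps28, had 80, 93 and 106 counts in MC2 to MC4 and 0 in M501 to M503, while MC1 had 126 and M504 had 83. Added to Rps28 it gave 218 ± 11.3 CPM in controls and 255 ± 21.9 CPM at 50 MPa (mean ± SD, n = 4; log2 fold change of the sum 0.22 ± 0.10, SE). H3f3c, Gm3755 and Gm45140 also had over 90% of their words in other genes.

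Fcgr2b, the inhibitory receptor for immunoglobulin G on myeloid and B cells, shares only 5.78% of its words with other genes. It stood at 16.7, 14.1 and 17.5 CPM in MC2 to MC4 and at 5.06, 5.09 and 6.39 CPM in M501 to M503, a log2 fold change of -1.55 ± 0.16 (SE; adjusted p = 0.00527, edgeR). In the first run, however, the control MC1 stood at 1.53 CPM and M504 at 1.80 CPM, so with all 8 libraries the groups overlapped (adjusted p = 0.575, edgeR). The olfactory receptor gene Olfr1039 had the same arrangement, with 9.44 to 12.4 CPM in MC2 to MC4, 3.18 to 3.90 CPM in M501 to M503, and 2.55 and 4.41 CPM in MC1 and M504. Gm49151 (5.60 CPM in MC1 and 15.6 to 18.4 in the other controls) did too. The unnamed gene ENSMUSG00002076740 did not overlap in either set, at 11.2, 15, 19 and 16.7 CPM in controls and 6.77, 5.79, 6.31 and 4.51 CPM at 50 MPa, with an adjusted p of 0.00527 in the run 2 libraries and 0.597 with all 8 (edgeR). At 5 MPa it stood at 38.4 CPM in M51 and 5.94 to 9.20 CPM in the other 3.

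The 48 gene lists hold, outside the study's own list, 874 distinct genes that were tested, and 0 of them passed the threshold with edgeR, with DESeq2 or with limma. Of the alternative edgeR fits, library sizes alone called 89, all higher, under a scaling that moved the median of all genes to 0.28. No filter on low counts called 2, Dpt and Rps27l, and the replicate block called 1, Hist1h2ap. The lists that follow are therefore given by their counts at an unadjusted p under 0.05, against 4.15% higher and 4.0% lower of all genes, and by their median log2 fold change, against -0.0079 for all genes.

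In the main matrix of cartilage few genes differed at an unadjusted p under 0.05. The 7 cartilage collagen genes had a median of 0.06 (-0.01 in the run 2 libraries), and none had an unadjusted p under 0.05. Col2a1, the type II collagen chain, stood at 1551, 1160, 3407 and 1166 CPM in controls and at 1974, 1358, 1461 and 2758 CPM at 50 MPa, and the control MC3 and M504 were highest. Its log2 fold change was 0.05 ± 0.39 (SE), and -0.26 in the run 2 libraries. Acan, the aggrecan core protein, followed the same pools, at 338, 273, 721 and 270 CPM against 390, 294, 304 and 467 CPM. Sox9, the transcription factor that defines chondrocytes, varied less, with 152 to 178 CPM in controls and 132 to 193 CPM at 50 MPa (log2 fold change -0.07 ± 0.15, SE). The chondrogenic transcription factors and the hedgehog and PTHrP loop had medians of 0.0030 and -0.06 (0.02 and -0.16 in the run 2 libraries), and none of their genes had such a p with all 8 libraries. In the aggrecan network (median -0.09, and -0.27 in the run 2 libraries), 1 of 10 (10.0%) had such a p: Ncan, neurocan, was lower (-0.68 ± 0.28, SE). Prg4, with 4101 counts over the controls and 1974 at 50 MPa, did not have such a p. In the pericellular matrix (median 0.08, and -0.05 in the run 2 libraries), 2 of 11 (18.2%) had such a p. These were the type VI collagen chains Col6a1 and Col6a2, both higher (0.30 ± 0.13 and 0.38 ± 0.16, SE) and both highest in M504 (1052 and 1071 CPM, against 728 to 774 and 637 to 656 in the other 3).

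The hypertrophy list was lower in sum: its 13 genes added up to 805 to 947 CPM in controls and 698 to 791 CPM at 50 MPa, without overlap, and to 746 to 1055 CPM at 5 MPa, which overlapped both. Of its members, 8 were lower and 5 higher (median -0.21, also -0.21 in the run 2 libraries), and 2 had an unadjusted p under 0.05, both lower. One was Mmp13, the collagenase of late hypertrophic cartilage, at 10.9, 29.9, 47 and 8.66 CPM in controls and 11.8, 5.67, 8.26 and 5.21 CPM at 50 MPa. The controls MC2 and MC3 were high and the other values overlapped (log2 fold change -1.68 ± 0.53, SE; adjusted p = 0.559, edgeR). The second was Runx3, a transcription factor of chondrocyte maturation (-0.44 ± 0.19, SE). Vegfa, the angiogenic factor of hypertrophic cartilage, stood at 493, 429, 299 and 323 CPM against 312, 260, 317 and 228 CPM, with overlap. It held the most counts of the 13 genes (15306 over the controls, against 4211 for Mef2d, the next), so the sum above weighs it most. Vegfa is also a member of the glycolysis and hypoxia list. Col10a1, the collagen of hypertrophic cells, was not lower throughout. It stood at 0.255, 1.26, 19.9 and 5.84 CPM in controls and 1.37, 1.74, 1.95 and 29.9 CPM at 50 MPa, so MC3 and M504 were far above the rest, and its log2 fold change of 0.18 ± 1.51 (SE) became -2.41 in the run 2 libraries.

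Genes of the perichondrium and of fibroblasts were mostly higher. Of the 12 genes in this list, 11 were higher (48.6% of all genes were) and 6 (50.0%) had an unadjusted p under 0.05. Without overlap 5 were higher (against 2.11% of all genes). The median was 0.24 (0.26 in the run 2 libraries, where all 12 were higher). Dpt, dermatopontin, a matrix protein that binds decorin, stood at 45.1, 30.0, 29.7 and 33.5 CPM in controls and 47.3, 46.4, 68 and 58 CPM at 50 MPa (log2 fold change 0.69 ± 0.16, SE; adjusted p = 0.499, edgeR). Col14a1, a collagen on the surface of fibrils, stood at 104 to 132 and 144 to 176 CPM, and Col5a2, a fibril-nucleating chain, at 449 to 543 and 553 to 657 CPM. Summed, the list overlapped, because the control MC3 reached 13782 CPM against 12907 to 15208 CPM at 50 MPa. At 5 MPa its median was 0.13.

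The small leucine-rich proteoglycans, which bind collagen fibrils, had 8 of 10 members higher, 3 with an unadjusted p under 0.05 and a median of 0.18 (0.36 at 5 MPa). That median was 0.31 without M504, 0.38 without MC1 and 0.39 in the run 2 libraries. Lum, lumican, stood at 154, 132, 157 and 108 CPM in controls and 186, 193, 200 and 230 CPM at 50 MPa, without overlap (log2 fold change 0.55 ± 0.16, SE). Kera, keratocan, stood at 44.1, 28.4, 51 and 23 CPM against 52.3, 64.2, 62.1 and 57.5 CPM, also without overlap. Dcn, decorin, overlapped (log2 fold change 0.51 ± 0.19, SE). In the tendon list (6 genes, median 0.58), Thbs4, a thrombospondin of tendon and muscle matrix, stood at 18.8, 29.9, 23.1 and 7.55 CPM in controls, 17.7 to 19.9 CPM at 5 MPa and 39.2, 28.1, 47.7 and 54.4 CPM at 50 MPa. Only M502 fell below the highest control (log2 fold change 1.07 ± 0.34, SE; adjusted p = 0.559, edgeR). The summed tendon list was at 140 to 262 CPM in controls and 235 to 289 CPM at 50 MPa.

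In the joint interzone list (10 genes, median 0.04) Gdf6, a BMP-family ligand of developing joints, stood at 9.42, 6.23, 5.73 and 11.5 CPM in controls and 10.7, 15.2, 14 and 17.4 CPM at 50 MPa, while its relative Gdf5 was level (log2 fold change -0.0079 ± 0.17, SE). The 11 secreted chondrocyte proteins had a median of 0.20 (0.01 in the run 2 libraries). Of these, 3 had an unadjusted p under 0.05, all higher, and 1 was higher at such a p in the run 2 libraries. The 3 were Cytl1, Mia and 1500015O10Rik, with log2 fold changes of 0.87 ± 0.28, 0.41 ± 0.15 and 0.70 ± 0.24 (SE). Cytl1, a cytokine-like protein of chondrocytes, reached 12.2 CPM in M504 against 5.77 to 6.83 in the other 3 and 2.94 to 5.81 in controls, and its log2 fold change was 0.52 in the run 2 libraries. Of the 10 bone matrix genes tested, Col1a2 and Col1a1 had log2 fold changes of 0.42 ± 0.16 and 0.20 ± 0.17 (SE), and both were closer to 0 in the run 2 libraries (0.31 and 0.01).

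Genes that respond to injury, stress or heat within hours were read 24 hours after pressure, and none of them passed the threshold. Of 21 tested injury cytokines and mediators only 1 had an unadjusted p under 0.05: Ccl7, a chemokine that attracts monocytes, at 1.78, 2.73, 1.71 and 0.906 CPM in controls and 3, 2.66, 5.77 and 4.01 CPM at 50 MPa (log2 fold change 1.08 ± 0.35, SE). Il6 did not pass the filter on low counts, with 14 counts over the controls and 10 at 50 MPa. The 23 heat shock genes had a median of 0.04 (-0.02 in the run 2 libraries). Hspa1a, the inducible HSP70, which shares 65.4% of its words with other genes, was at 89.2 CPM in the control MC2 and at 3.32 to 11.2 in the other controls, against 6.24 to 13.9 CPM at 50 MPa, so that its log2 fold change of -1.65 ± 0.93 (SE) became 0.60 without MC2. The endoplasmic reticulum stress list had a median of -0.09, and the p53 and cell death list -0.10. Of the 23 genes of the latter, 2 were higher and 3 lower at an unadjusted p under 0.05. The higher ones were Casp8 and Sesn1, at 0.40 ± 0.14 and 0.29 ± 0.09, and the lower ones Pmaip1 (a pro-apoptotic BH3 protein), Tnfrsf10b (a death receptor) and Perp (a membrane protein of skin desmosomes), at -0.82 ± 0.30, -0.25 ± 0.10 and -3.98 ± 1.49 (SE). Perp stood at 55.3 CPM in MC2 and at 0.503 to 0.764 CPM in the other controls, against 0.624 to 1.3 CPM at 50 MPa, so MC2 alone was high.

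Of 19 immediate early genes, those first induced by a stimulus and mostly for transcription factors, 14 were lower. An unadjusted p under 0.05 was found for 3 (15.8%), all lower: Fosb, Egr3 and Fosl2 (log2 fold changes of -1.06 ± 0.44, -0.41 ± 0.18 and -0.30 ± 0.13, SE). The median was -0.18, and -0.27 in the run 2 libraries, where 8 of the 19 had such a p. Fosb stood at 1.27, 4.48, 1.19 and 1.51 CPM in controls and 1.03, 0.984, 0.935 and 1.3 CPM at 50 MPa, and Fos at 10.2, 16.3, 5.88 and 5.64 against 6.77, 6.66, 6.16 and 7.22 CPM, so MC2 was highest for both. Of 23 antioxidant and metallothionein genes, 16 were higher and 5 (21.7%) had an unadjusted p under 0.05, all higher (median 0.13). Without M504 and in the run 2 libraries the median was 0.07, and in the latter 1 gene was higher and 1 lower at such a p. Txn1, thioredoxin, stood at 31.6, 30.5, 37.7 and 34.4 CPM in controls and 49, 38.5, 42.5 and 58 CPM at 50 MPa, and Prdx2, a peroxidase that thioredoxin reduces, at 42.3 to 58.3 and 59.5 to 101 CPM, where M504 was highest (log2 fold change 0.42 ± 0.15, SE, and 0.12 in the run 2 libraries).

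Lists of the machinery that senses load and of growth plate signalling had medians close to that of all genes. The 26 mechanosensitive and calcium channels had a median of -0.07. Lrrc8a, the obligate subunit of the channel that releases ions from swollen cells, stood at 60.3, 60.3, 59.9 and 61.7 CPM in controls and 46.7, 45.9, 44.9 and 55.4 CPM at 50 MPa, without overlap (log2 fold change -0.33 ± 0.12, SE; adjusted p = 0.568, edgeR). In the run 2 libraries it was -0.40, and at 5 MPa -0.17, and 66.1% of its words lie in other genes. P2rx7, an ATP-gated channel, had a log2 fold change of 0.51 ± 0.21 (SE), and Piezo1, a stretch-gated channel, -0.07 ± 0.12 (SE). Integrins, the YAP and Hippo list, actin and serum response genes, and the BMP and TGF-beta, FGF and IGF lists had medians between -0.06 and 0.0085 (-0.14 to -0.0058 in the run 2 libraries), and among their members 2 had an unadjusted p under 0.05, both of the YAP and Hippo list. These were Axl, a receptor kinase, and Stk3, a kinase of the Hippo cascade, with log2 fold changes of 0.26 ± 0.11 and 0.29 ± 0.12 (SE), and 0.12 and 0.39 in the run 2 libraries. In the Wnt list (median -0.0030, and -0.09 in the run 2 libraries), the agonist Rspo2 and the ligand Wnt5b had log2 fold changes of 0.42 ± 0.15 and 0.81 ± 0.26, and the feedback inhibitor Axin2 -0.27 ± 0.12 (SE). Of the clock genes Bhlhe41, a repressor, stood at 39, 33.6, 43.7 and 46.8 CPM against 29.4, 30.4, 32 and 27.4 CPM, without overlap (-0.45 ± 0.11, SE; adjusted p = 0.499, edgeR).

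Transcripts for ribosomal proteins and for the respiratory chain were higher in most members. Of 84 cytosolic ribosomal protein genes tested, 83 were higher at 50 MPa (48.6% of all genes were), 37 (44.0%) had an unadjusted p under 0.05, all higher, and 10 (against 2.11% of all genes) did not overlap. The median was 0.29. Of 76 nuclear genes for oxidative phosphorylation, 71 were higher, 30 (39.5%) had such a p, all higher, and 10 did not overlap (median 0.27). Summed, the oxidative phosphorylation list was at 2383 to 2486 CPM in controls and 2548 to 3571 CPM at 50 MPa, without overlap, while the ribosomal list overlapped (20045 to 24589 and 23405 to 33990 CPM). M504 was the highest library for both sums.

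Rps21, a ribosomal protein of the small subunit, stood at 199, 186, 179 and 170 CPM in controls and 202, 246, 254 and 360 CPM at 50 MPa (log2 fold change 0.54 ± 0.15, SE), and Rps27l, a p53-induced relative of Rps27, at 30.3, 23.3, 21.2 and 21.4 against 32.4, 32.2, 41.8 and 45.8 CPM (0.68 ± 0.16, SE; adjusted p = 0.499, edgeR). Cox7c, a subunit of cytochrome c oxidase, had a log2 fold change of 0.55 ± 0.14, Atp5j2, a subunit of ATP synthase, 0.49 ± 0.14, and Ndufc2, a subunit of complex I, 0.37 ± 0.11 (SE). Without M504 the medians were 0.15 for ribosomal proteins and 0.17 for oxidative phosphorylation, and Rps21 came to 0.35. In the run 2 libraries 77 of 83 ribosomal and 65 of 76 oxidative phosphorylation genes tested there were above 0 (medians 0.20 and 0.17). At 5 MPa the medians were 0.28 and 0.20, against the same controls.

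Both lists hold short genes, and fold change went with length across all protein-coding genes. The median longest transcript was 1054 bases for the ribosomal list and 1135 for the oxidative phosphorylation list. Among protein-coding genes with transcripts of at most 1000 bases the median log2 fold change was 0.21 and 19.4% were higher at an unadjusted p under 0.05, against 1.69% lower. Above 8000 bases the median was -0.08, and 0.604% were higher and 5.34% lower. Without the members of both lists the shortest genes (522) still had a median of 0.18. The gradient was present without M504 (0.11 to -0.05), in the run 2 libraries (0.10 to -0.03) and at 5 MPa (0.14 to -0.05). The share of counts in ENSMUSG00000119584 and the share of protein-coding counts moved between the same groups. Copies such as Gm10443 were counted apart from the ribosomal protein genes that hold their sequence. The part of length, RNA quality, library composition or copies in these lists was not tested.

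**Figure D3:**
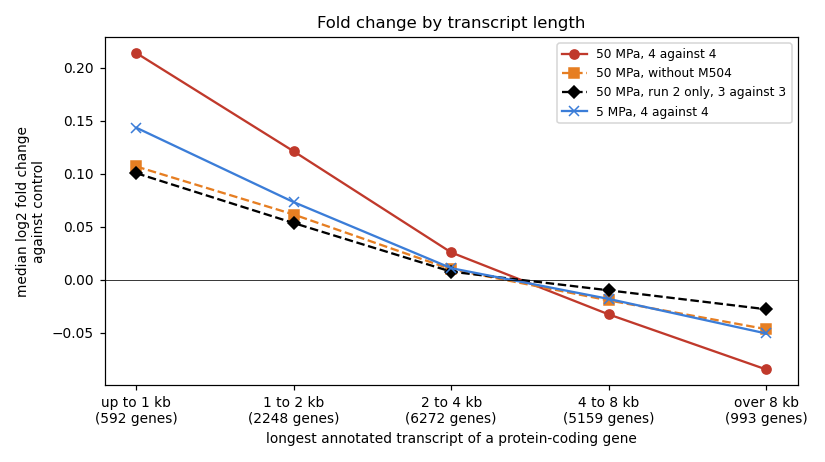
Median log2 fold change against control (y) of protein-coding genes grouped by their longest annotated transcript (x; number of genes in brackets). Every line falls from the shortest to the longest genes, from 0.21 to -0.08 at 50 MPa with 4 libraries a group and from 0.10 to -0.03 in the run 2 libraries.

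Of the 15 mitochondrially encoded genes, 12 were lower with all 8 libraries (median -0.21), 2 of them at an unadjusted p under 0.05. This direction was not held in the run 2 libraries, where 7 of 15 were higher (median -0.03), 3 at such a p, and none was lower at such a p. Without M504 the median was -0.08. Counted without their copies, mt-Co3 and mt-Co2 both came to 0.49 in the run 2 libraries. Summed with Gm28437 and Gm28661 they came to -0.0027 and -0.11 with all 8 libraries. The part of these copies in the list was not tested. The 2 genes lower at an unadjusted p under 0.05 with all 8 libraries were the mitochondrial ribosomal RNAs mt-Rnr1 and mt-Rnr2. Their log2 fold changes were -0.81 ± 0.24 and -0.91 ± 0.32 (SE), and -0.65 and -0.72 in the run 2 libraries. For mt-Rnr2 the controls stood at 25598, 18595, 11025 and 11623 CPM and the 50 MPa libraries at 12013, 5281, 7743 and 10422 CPM, so MC1 and MC2 were far above the rest. Ribosomal RNA was depleted when the libraries were made, per the paper, and the part of depletion in mt-Rnr1 and mt-Rnr2 was not tested. Glycolysis and hypoxia genes had 25 of 30 members lower (median -0.13), and 24 of 30 higher at 5 MPa (median 0.10); none had an unadjusted p under 0.05 at 50 MPa. The median at 50 MPa was -0.07 without MC1 and -0.08 in the run 2 libraries, where 9 of 30 were higher, 2 at such a p, and none was lower at such a p.

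Proliferation genes were higher in the fit of all libraries and less so without M504. Of 30 cell cycle and replication genes, 24 were higher and 4 had an unadjusted p under 0.05 (median 0.25, 0.09 without M504 and 0.07 in the run 2 libraries). Mcm3, a subunit of the replicative helicase, stood at 15.8, 18.3, 15.1 and 19 CPM in controls and 22.4, 21.2, 21 and 31.9 CPM at 50 MPa, and Mcm2 and Rrm1 had log2 fold changes of 0.44 ± 0.16 and 0.24 ± 0.09 (SE). In the run 2 libraries Mcm3, Mcm2 and Rrm1 came to 0.30, 0.23 and 0.17. Of 64 histone genes, 55 were higher and 16 (25%) had an unadjusted p under 0.05 and were higher, and 1 was lower at such a p (median 0.39). That median was 0.16 without M504 and 0.07 in the run 2 libraries. Among all protein-coding genes with transcripts of at most 1000 bases, 19.4% were higher at such a p. The part of length in the histone values was not tested. Hist1h2ag stood at 1.78, 3.08, 7 and 6.14 CPM in controls and 7.20, 10.4, 7.64 and 18.7 CPM at 50 MPa, and 79.8% of its words lie in other genes. Most histone messages lack a poly(A) tail, and the kit used here takes total RNA.

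**Figure D4:**
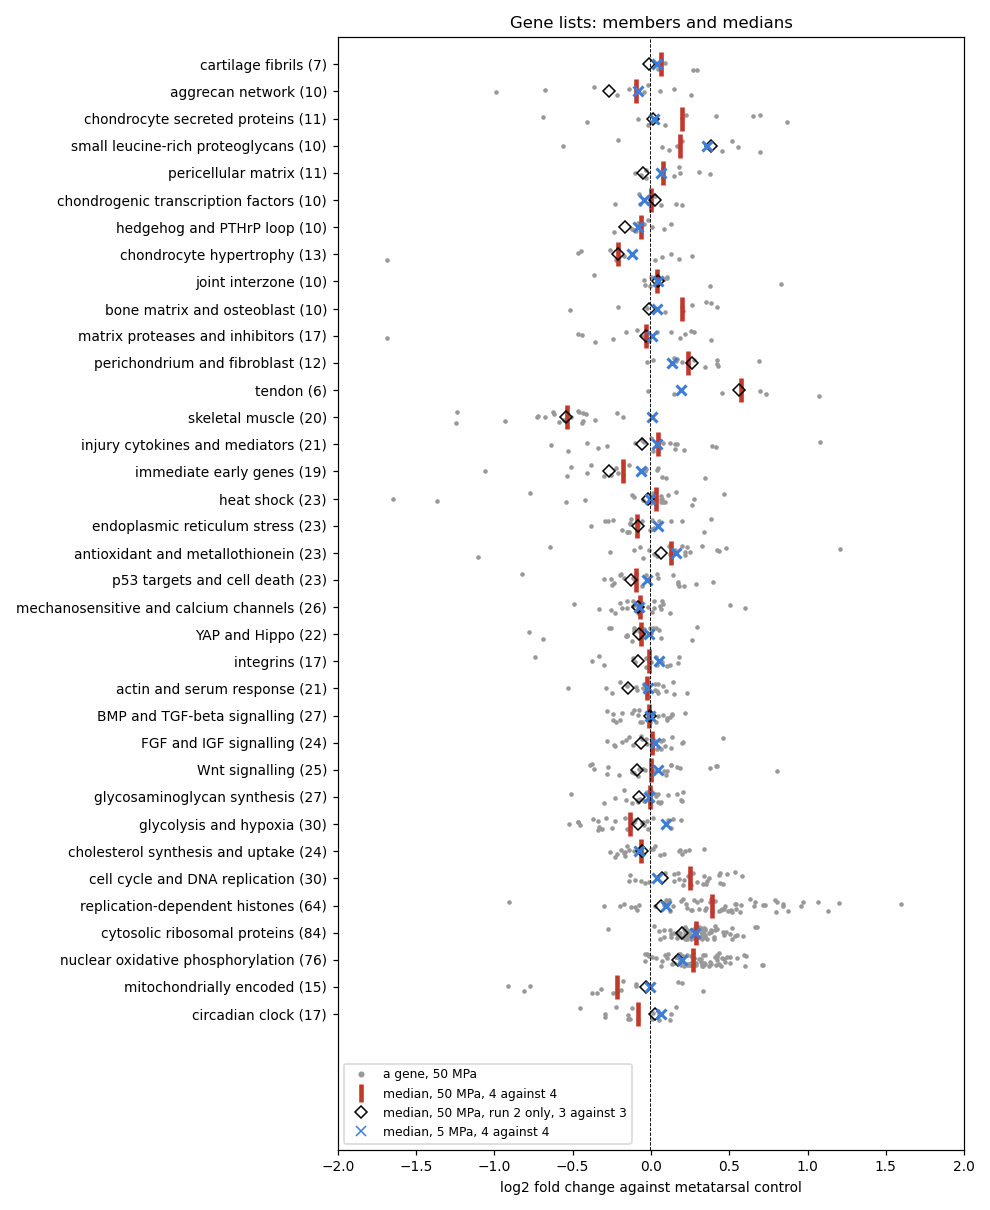
Log2 fold change against metatarsal control (x) of the members of 36 gene lists (rows, genes tested in brackets); grey points are genes at 50 MPa, red bars their median, open diamonds the median in the run 2 libraries, blue crosses the median at 5 MPa, and the dashed line the median of all genes. Ribosomal proteins and oxidative phosphorylation sit right of the line by all 3 medians. So do, among others, tendon, perichondrium and fibroblast, small leucine-rich proteoglycans, antioxidant, cell cycle and histone lists. Skeletal muscle sits left of it at 50 MPa only, and 2 genes beyond the axis limits are not drawn.

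Genes of muscle and skin, tissues that can come along in dissection, differed between pools. All 20 tested skeletal muscle genes were lower at 50 MPa (median -0.53, -0.54 in the run 2 libraries, and 0.0042 at 5 MPa). Only Myh7, a slow muscle myosin, had an unadjusted p under 0.05 (log2 fold change -1.24 ± 0.38, SE). The part of dissection in the muscle values was not tested. The summed muscle list stood at 1650, 1794, 1967 and 3908 CPM in controls and 1328, 1142, 2597 and 742 CPM at 50 MPa, so M503 was above 3 of the controls, and 22 of 22 members had counts. The epidermis list stood at 626 CPM in the control MC2 and between 4.07 and 8.06 CPM in the other metatarsal libraries; Krt10, a keratin of skin, was at 123 CPM in MC2 and at 0.968 to 1.31 in the other controls. Its log2 fold change of -3.97 ± 1.56 (SE) became 0.96 without MC2, and Trp63, a transcription factor of basal skin cells, was likewise highest in MC2 (14.1 CPM). MC2 is also the library that was highest for Hspa1a, Perp, Fosb and Fos, and the part of skin in those values was not tested.

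Erythroid and neutrophil markers were low. The erythroid list summed to 2.29 to 9.72 CPM in controls and 1.5 to 13.5 CPM at 50 MPa, and Alas2, the heme synthesis enzyme of red cell precursors, was at 9.62 CPM in M504 and at most 1.61 CPM in the other metatarsal libraries. Macrophage, osteoclast, mast cell and endothelial lists overlapped between the groups. They were at 100 to 149 against 114 to 139 CPM for macrophages and 138 to 208 against 180 to 197 CPM for endothelium. Osteoclast genes summed to 141 to 192 against 159 to 196 CPM, and mast cell genes to 42.4 to 107 against 52.1 to 95.5 CPM. Within the endothelial list Pecam1 had a log2 fold change of -0.30 ± 0.13 (SE), opposite to Cd34 and Clec14a. The neutrophil list reached at most 5.58 CPM, and Mpo, its 1 tested member, was at 0.84 to 3.20 CPM in controls and 0.429 to 1.32 CPM at 50 MPa. For nerve and Schwann cells the sums were 45.6 to 73 and 44.2 to 62.5 CPM. The part of these cells in any result above was not tested.

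**Figure D5:**
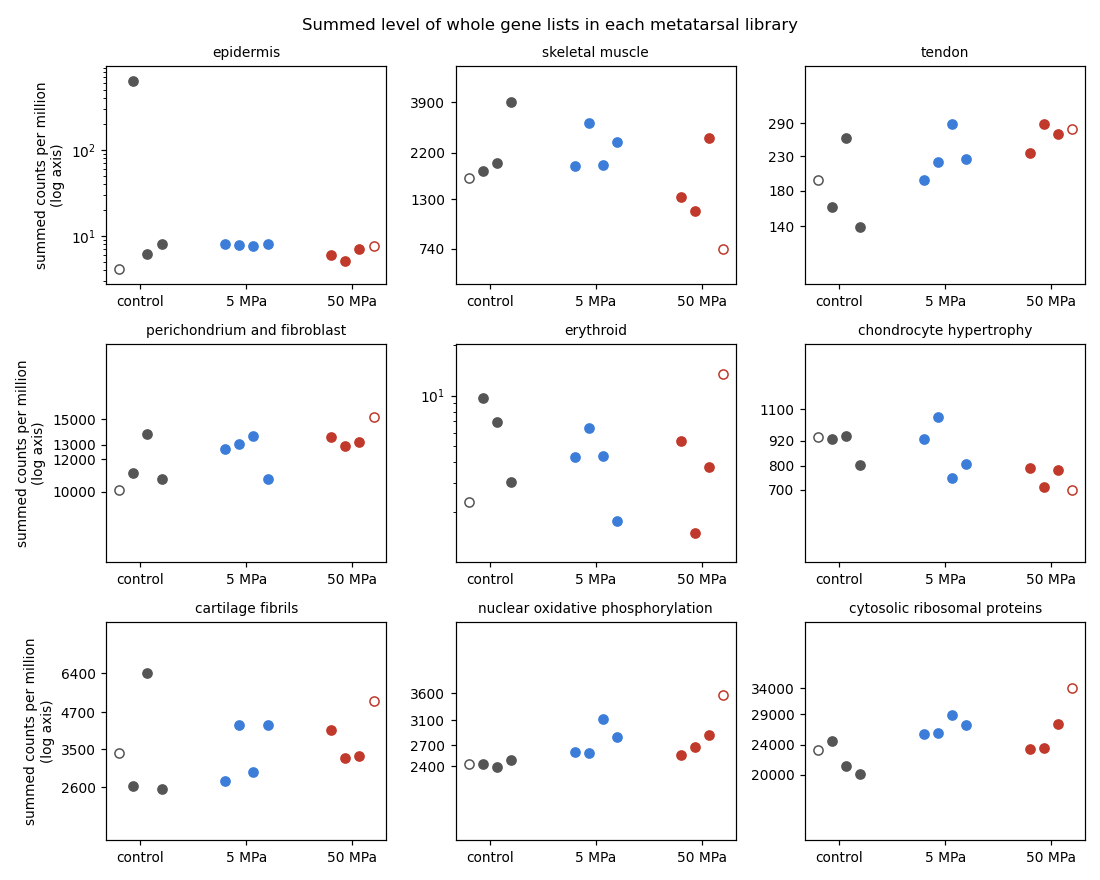
Summed CPM (log axis) of 9 whole gene lists in each metatarsal library at 0, 5 and 50 MPa; a point is a library, and open points are MC1 and M504. Control and 50 MPa points do not overlap for chondrocyte hypertrophy and nuclear oxidative phosphorylation and overlap for the other lists drawn, and the epidermis list is at 626 in MC2 alone.

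A list of metatarsal genes named by the study was chosen on these samples, so its direction here is no independent evidence. Of its 18 members matched to an identifier, 6 passed the filter on low counts: Gm28437, Gm28661, Rpl36a-ps2, Bloc1s5, Gsg1l and Gm32017. Many of the rest had counts in single libraries. Gm12671 and Gm10359, both with 94.5% of their words in the glycolytic gene Gapdh, had 224 counts each in MC4 and 0 in the other metatarsal libraries. Gm28439, a copy of mt-Nd4, had 835 counts in MC2 only, and Gm10222, a copy of mt-Nd4l, had 481 in MC1 and 210 in MC3 only. Gm6344 had 3 counts in M504 and 0 elsewhere. Rpl36a-ps2, a copy of Rpl36a, had 73 to 357 counts in the controls, 87 in M51, 0 in M501 to M503 and 290 in M504. Endou, an endoribonuclease also found in skin, had 217 counts in MC2 and at most 6 elsewhere.

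The single-copy genes of that list gave modest values. Gm32017, a noncoding transcript, stood at 8.15, 16.8, 15.4 and 13.1 CPM in controls and 9.43, 8.68, 9.35 and 8.42 CPM at 50 MPa, and Gsg1l, an auxiliary subunit of glutamate receptors, at 8.91, 24.5, 25.3 and 26.4 against 15.5, 16.7, 16.8 and 10.9 CPM. For both genes MC1 was the low control and the other 3 lay above every 50 MPa library. Their log2 fold changes were -0.61 ± 0.19 and -0.54 ± 0.24 (SE; adjusted p = 0.549 and 0.601, edgeR). Bloc1s5, a subunit of a complex that sorts cargo to lysosome-related organelles, stood at 10.4, 10.1, 10.3 and 6.94 CPM against 11.2, 12.1, 12.4 and 10.5 CPM (0.30 ± 0.16, SE).

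Injurious and physiological pressure were compared directly as well. Of 19382 genes, 0 (0.0%) passed in the test of 50 MPa against 5 MPa with edgeR, 549 had an unadjusted p under 0.05, and DESeq2 called 2, Gm10443 and Gm5537. Smtnl2 and Thbs4 stood at 9.02 ± 1.02 against 14.5 ± 3.02 CPM and 42.4 ± 11.4 against 18.5 ± 0.944 CPM, 50 MPa first (mean ± SD, n = 4), with log2 differences of -0.68 and 1.19. Gdf6 (0.49), Plac9a (0.49) and Penk (0.37) were higher at 50 than at 5 MPa by less than their distance from the controls, and Lum (0.14), Rps27l (0.10) and Kera (-0.18) were at like levels at both pressures. All of these had an adjusted p of 1 (edgeR).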

How the data were processed

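The data are total RNA libraries from pooled mouse metatarsals, made with a depletion of ribosomal RNA per the paper. Per the labels and the paper, the authors trimmed reads (Trim Galore 0.6.5), assigned them with kallisto (version not given in the sources used here; build GRCm39) and summed transcripts with tximport. Their methods describe low RNA integrity in these explants. The deposited values are estimated counts of 52178 genes, not normalized, and were rounded; 0 columns belong to other samples. GENCODE M21 (GRCm38) gave symbols to 48845 genes, and 3333 stayed unnamed; it served for names, lengths and transcript sequence only, and no coordinates are given.

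The 12 metatarsal libraries were fitted with edgeR 4.0.16 (robust quasi-likelihood, group terms, filterByExpr, TMM, R 4.3.3), with Benjamini-Hochberg adjustment and a threshold of 0.05. The paper's terms for run and library type were alternatives, because they leave M504 and MC1 without weight. DESeq2 1.42.0 and limma 3.58.1 were others. CPM use TMM library sizes, and log2 CPM a prior count of 2. Genes sharing at least 90% of 31-base words were summed into families, which was chosen after seeing the data. Standard errors come from the edgeR fit and include the spread between libraries; floors of 3 counts cover counting error only. Scripts were tested on simulated data.

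Genes were named if they passed the threshold, if they were among the 10 highest or lowest non-overlapping genes (mean of at least 1 CPM, unadjusted p under 0.05, no predicted genes or pseudogenes), if they passed in the run 2 libraries (10 each way), as members of a list, or as genes the study named. The members and lists were chosen with earlier results of these data known. Septin2 and U6 matched no single identifier and are not analysed here.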

Additional observations from a re-analysis of the deposited data

Results flagged for a closer look

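In 9 of 90 groups of 4 libraries that were looked at, 1 library stood apart by Dixon's criterion, which chance alone gives in about 1 of 20 groups. MC1 was the low control for Fcgr2b (1.53 CPM against 14.1 to 17.5), Gm49151 (5.60 CPM), Gsg1l (8.91 CPM) and Snora47 (1.78 CPM against 3.20 to 3.57). M504 was the high library for Gm10443 (8.32 CPM against 0), Rpl36a-ps2 (29.1 CPM against 0) and Gm3755 (16.7 CPM against 5.85 to 6.24). MC2 was high for mt-Tm (2.66 CPM), and MC4 was low for Bloc1s5 (6.94 CPM). In 7 of the 9 the library is one of the 2 read as the first run. However, Fcgr2b, Gm49151, Gm10443 and Gm3755 were among the genes named for passing in the run 2 libraries, which leave out MC1 and M504. Rpl36a-ps2, Gsg1l and Bloc1s5 came from the study's list, chosen on these samples. Neither the 9 nor the 7 can therefore be held against that chance rate.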

How the results depend on the processing

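The 3 genes past the threshold at 50 MPa against control became 15 with DESeq2 (7 higher), 426 with library sizes alone (421 higher; that scaling moved the median of all genes to 0.28), 13 with no filter on low counts, 0 with at least 10 counts in every library (1179 at an unadjusted p under 0.05), 6 with run and library type as terms, 13 in the stranded libraries of run 2, 0 in a fit of 22 libraries of both tissues (828 unadjusted), 1 without predicted genes and pseudogenes and 0 with copies summed. Leaving out 1 library at a time gave 2 to 4, and Olfr1506 was lost without MC3. At 50 against 5 MPa, DESeq2 called 2 where edgeR called 0. The replicate numbers did not pair the libraries (correlations of their deviations between -0.13 and 0.06; only replicate 4 was closest to its own number), and the replicate block gave 6 calls. Depth limits low genes most in MC1, which held 4185557 counts.

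Some named genes changed sign. With copies summed, Gm13769, mt-Co3 and mt-Co2 came to -0.31, -0.0027 and -0.11. With library sizes alone, Axin2, Pecam1, Cdkn1a, Piezo1, Sox9, Acan and Gdf5 came to 0.022, 0.0096, 0.029, 0.21, 0.19, 0.11 and 0.28. Col2a1 came to -0.12 with limma, -0.19 with a library term, -0.26 with run and library terms, -0.26 in run 2 and -0.11 in 22 libraries. Col10a1 came to -1.47, -2.13, -2.41, -2.41 and -1.50 in the same order, and to -0.11 with the replicate block, under which Gdf5 was 0.0044. Leaving out 1 library gave ranges of -4.54 to 0.96 for Krt10, -2.02 to 0.60 for Hspa1a, -0.18 to 0.0081 for Sox9, -0.29 to 0.31 for Acan, -0.19 to 0.55 for Col2a1, -2.12 to 1.63 for Col10a1 and -0.13 to 0.19 for Gdf5. The cause was not tested.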
